A study of Homo sapiens with 8 samples.

Results

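The tropomyosin genes TPM1, TPM2, TPM3 and TPM4 were followed probe set by probe set in MDA-MB-231, an established line of human breast cancer cells of the triple-negative class. Every probe set whose only gene symbol in the platform annotation was one of these 4 was taken, which gave 15 of the 54613 probe sets: 6 for TPM1, 4 for TPM2, 5 for TPM4 and none for TPM3, which was not analysed here. The cells had been kept for 2 days on a soft substrate (4 arrays) or on a stiff substrate (4 arrays), in the same serum-supplemented medium, with biological replicates lettered A to D in each group and no other treatment named. The sources used here give no stiffness for the substrates. They call the replicates biological without saying how cultures were kept apart, so the p-values reflect only the variation among these 8 arrays. The title sets the study in the context of mechanical cues acting through mevalonate and RhoA, a small GTPase that drives actin contractility. The family was chosen with the soft against stiff values of these arrays already known, TPM4 because its probe sets differed in opposite directions, so the differences below are a description of these arrays and their adjusted p-values place each probe set in the fit of the whole table.

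Tropomyosins are rod-shaped coiled-coil proteins that join end to end and lie along actin filaments. They stabilise the filament and set which other proteins, such as myosin motors and the severing protein cofilin, can reach it. The genes give several isoforms through alternative splicing and, for some of the genes, alternative promoters. Some isoforms are typical of muscle and others of stress fibres and short filaments in non-muscle cells. Tropomyosin genes are known targets of the actin-sensing coactivator MRTF and its partner SRF.

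Because the probe sets of a gene can read different transcripts, the starts of the gene whose probe sets parted most are shown. RefSeq (GRCh38.p14) lists 3 TPM4 starts on chromosome 19, spread over 9.48 kb. The 250 bases before the outermost start and before the next one are printed 5′ to 3′ on the plus strand, with capitals for the CArG box, the sequence class bound by SRF, and for the letters TATAA.
TPM4 outer start, chr19:16067288-16067537: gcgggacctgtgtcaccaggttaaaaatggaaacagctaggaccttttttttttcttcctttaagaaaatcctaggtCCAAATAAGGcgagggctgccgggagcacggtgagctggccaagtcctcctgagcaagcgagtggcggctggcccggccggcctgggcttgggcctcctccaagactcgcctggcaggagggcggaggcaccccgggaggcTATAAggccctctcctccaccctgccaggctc
TPM4 inner start, chr19:16076245-16076494: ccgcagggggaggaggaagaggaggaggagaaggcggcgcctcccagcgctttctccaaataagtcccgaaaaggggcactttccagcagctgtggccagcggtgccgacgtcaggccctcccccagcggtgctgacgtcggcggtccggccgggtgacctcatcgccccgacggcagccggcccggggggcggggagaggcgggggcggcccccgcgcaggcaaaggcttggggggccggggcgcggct
Exact matches on either strand were counted, with CCWWWWWWGG (W for A or T) as the CArG box. Only the outer window held any: 1 CArG box from 173 to 164 bases before the start and 1 TATAA from 32 to 28 bases before it. Near matches were not counted, such as ccaaataagt in the inner window, which differs from the outer box in its last base. Of 35116 RefSeq windows of 250 bases, 1.16% held a CArG box and 18.9% held TATAA. The windows at the other TPM4 start and at the listed TPM1, TPM2 and TPM3 starts held neither. The sources used here do not say which transcripts each probe set reads.

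Levels are log2 RMA values as deposited. A probe set counted as above background when a group mean exceeded 6.661, the 95th percentile of 14 genes taken as silent in these cells, and 7 of the 15 tropomyosin probe sets did. The nearest ones on either side were TPM2 204083_s_at, with means of 7.45 on soft and 7.39 on stiff, and TPM1 238688_at, with 6.49 on soft and 6.54 on stiff. One silent gene lay at 7.586, and without it the level would be 6.137 and 9 tropomyosin probe sets would pass, the added ones being TPM1 238688_at and TPM2 212654_at. Arrays correlated with each other at 0.9932 to 0.9982, and the second principal component, with 16.4% of the variance, set stiff A and B apart from stiff C and D. The cells carried VIM, CD44, EGFR, AXL, CAV1 and MET above background but not SPARC, and ESR1, PGR, CDH1 and FOXA1 lay under it, while ERBB2 and GATA3 did not. None of 8 muscle markers was above background, and their summed linear level was 390.3 to 417.6 on soft and 352.8 to 395.9 on stiff arrays. Of 5 fibroblast markers only COL1A1 was above background, with sums of 321.9 to 392.9 on soft and 339.3 to 375.4 on stiff, and none of 3 leukocyte markers was, with sums of 123.7 to 151.7 on soft and 111.4 to 131.3 on stiff. Of all these markers only the receptor tyrosine kinase AXL passed the threshold, at 12.995 on soft and 13.2225 on stiff (difference -0.23, limma adjusted p = 0.0318).

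TPM4, a tropomyosin found in stress fibres of many non-muscle cells and in platelets, was lower on soft at 1 probe set, higher at another that lay under background, and not past the threshold at the other three. At 209344_at, the TPM4 probe set with the highest level, soft arrays A to D gave 10.52, 10.13, 10.57 and 10.61, against 10.84, 10.91, 10.89 and 10.88 on stiff arrays A to D. All soft arrays lay under all stiff arrays, and soft B lay farthest down. The stiff arrays held together (10.88 ± 0.0294, SD, n = 4), while the soft arrays spread more widely (10.5 ± 0.221, SD, n = 4). The difference was -0.42 on the log2 scale (SE 0.0977, limma adjusted p = 0.0218), or 0.746 times the level on stiff. The call was lost when stiff B (adjusted p = 0.0614), stiff C (0.0526) or stiff D (0.0524) was left out, although the difference then stayed at -0.41 to -0.42. Without soft B the difference was smaller, at -0.31, and the call was kept (limma adjusted p = 0.0193). Without soft A, C or D it was -0.44 to -0.47.

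The other TPM4 probe sets above background showed no such step. At 1567107_s_at soft A to D gave 10.00, 10.16, 10.31 and 10.26, and stiff A to D gave 10.08, 10.17, 10.27 and 10.17. At 212481_s_at the values were 10.27, 10.06, 10.38 and 10.22 on soft and 10.09, 10.15, 10.18 and 10.22 on stiff. The groups overlapped at both. Their differences were 0.01 (95% interval -0.16 to 0.18, limma adjusted p = 0.960) and 0.07 (95% interval -0.09 to 0.24, limma adjusted p = 0.632), so neither interval reached the -0.42 of 209344_at. Both carry the platform's mark for probes shared between transcripts, and 209344_at does not.

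Taken within each array, the ratio of 209344_at to 212481_s_at separated the groups. Centred on its mean over all 8 arrays, it was -0.222, -0.402, -0.283 and -0.083 on soft A to D, against 0.278, 0.287, 0.238 and 0.188 on stiff A to D. The means differed by -0.495 on the log2 scale. That is the gap between the differences of these probe sets given above. TPM4 was chosen on such differences, so the ratios here restate them and are no separate result. The ratio of 1567107_s_at to 209344_at, centred in the same way, was also separated, by 0.433, whereas that of 1567107_s_at to 212481_s_at overlapped between the groups and differed by -0.0625. As a description of how far probe sets of a gene part on these arrays, 1236 genes had exactly 3 probe sets above background, and the median range of their differences was 0.19. The range was 0.495 for TPM4, which was chosen for this disagreement, and 0.14 for TPM1. Among these genes 91.5% had a smaller range than TPM4 and 36.5% a smaller range than TPM1. Like TPM4, 410 of the 1236 genes had both a called and an uncalled probe set above background. Of 706 genes with 5 probe sets at any level, 18 were called in both directions.

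**Figure D1:**
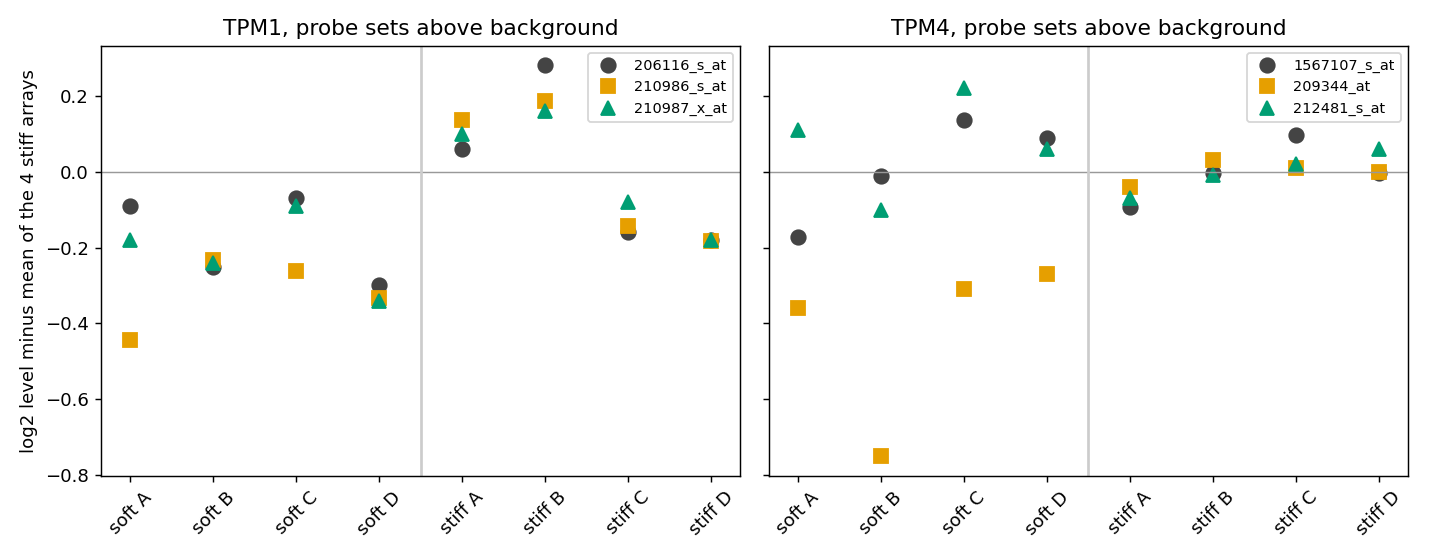
Log2 level of the 3 TPM1 (left) and 3 TPM4 (right) probe sets above background on each array, minus that probe set's mean over the 4 stiff arrays. For TPM4, 209344_at (squares) lies below 0 on every soft array while the other probe sets lie around 0; for TPM1, the 3 probe sets lie below 0 on every soft array and above 0 on stiff A and B.

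The TPM4 probe sets under background went the other way or overlapped. At 235922_at soft A to D gave 5.66, 5.43, 5.22 and 5.40, against 4.84, 5.04, 4.98 and 5.06 on stiff. Every soft array lay above every stiff array. The difference was 0.45 (SE 0.0924, limma adjusted p = 0.0131), or 1.36-fold, at a level under 6.661 and within the range of the silent genes. At 1559989_at the groups overlapped, with 5.19 to 5.44 on soft and 5.11 to 5.46 on stiff, and the difference was 0.08 (limma adjusted p = 0.642).

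TPM1, a gene of tropomyosins of muscle and stress fibres, has been reported to be reduced in many transformed cells. It was lower on average on soft at each of its 3 probe sets above background, and none of these passed the threshold. At 210986_s_at soft A to D gave 10.95, 11.16, 11.13 and 11.06, against 11.53, 11.58, 11.25 and 11.21 on stiff A to D. All soft arrays lay under all stiff arrays, but soft B was only 0.05 under stiff D. The difference was -0.32 (SE 0.0940, 95% interval -0.52 to -0.11, limma adjusted p = 0.0589). It passed the threshold in 6 of 19 alternative settings, among them those without dim probe sets (adjusted p = 0.0238 above background), with a trended, robust variance (0.0163), with arrays centred on their medians (0.0470) and without stiff D (0.0437).

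The other bright TPM1 probe sets overlapped between groups. At 210987_x_at the values were 10.01, 9.95, 10.10 and 9.85 on soft A to D and 10.29, 10.35, 10.11 and 10.01 on stiff A to D, a difference of -0.21 (SE 0.0874, limma adjusted p = 0.169). At 206116_s_at they were 9.44, 9.28, 9.46 and 9.23 on soft and 9.59, 9.81, 9.37 and 9.35 on stiff, a difference of -0.18 (SE 0.104, limma adjusted p = 0.353). In both, stiff A and B were the highest arrays. All 3 bright TPM1 probe sets carry the mark for probes shared between transcripts (_s_at or _x_at), so they may also read other transcripts. The sources used here do not say whether they share probes with each other, so their values need not be independent readings. The within-array ratios between them overlapped between the groups and differed by -0.105 to 0.14.

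The TPM1 probe sets not above background were mixed. At 206117_at soft arrays gave 5.13, 5.14, 5.27 and 4.91, against 5.28, 5.35, 5.38 and 5.48 on stiff, which did not overlap. The difference was -0.26 (SE 0.0822, limma adjusted p = 0.0756), and it passed the threshold without soft C (adjusted p = 0.0411). At 238688_at the groups overlapped, with 6.42 to 6.55 on soft and 6.48 to 6.60 on stiff. At 1558532_at soft A and B (5.38 and 5.36) lay above all stiff arrays (4.98 to 5.19) and soft D (4.69) under them all, so the mean difference of 0.01 joined opposite deviations.

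TPM2, the beta-tropomyosin of muscle, smooth muscle and fibroblasts, did not pass the threshold at its brightest probe set. At 204083_s_at soft A to D gave 7.36, 7.40, 7.43 and 7.60, and stiff A to D gave 7.39, 7.24, 7.45 and 7.49, which overlapped (difference 0.06, 95% interval -0.11 to 0.22, limma adjusted p = 0.738). At 229911_at, under background, soft A to D gave 4.58, 4.59, 4.43 and 4.61 and stiff A to D gave 4.14, 4.35, 4.33 and 4.11. Every soft array lay above every stiff array there, and the difference of 0.32 (SE 0.0765, 1.25-fold) passed the threshold (limma adjusted p = 0.0251). That call was lost without soft A, B or D or stiff A or D (adjusted p of 0.0596 to 0.0742). The remaining TPM2 probe sets, 212654_at and 227397_at, lay under background and overlapped, at differences of -0.14 and 0.06.

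**Figure D2:**
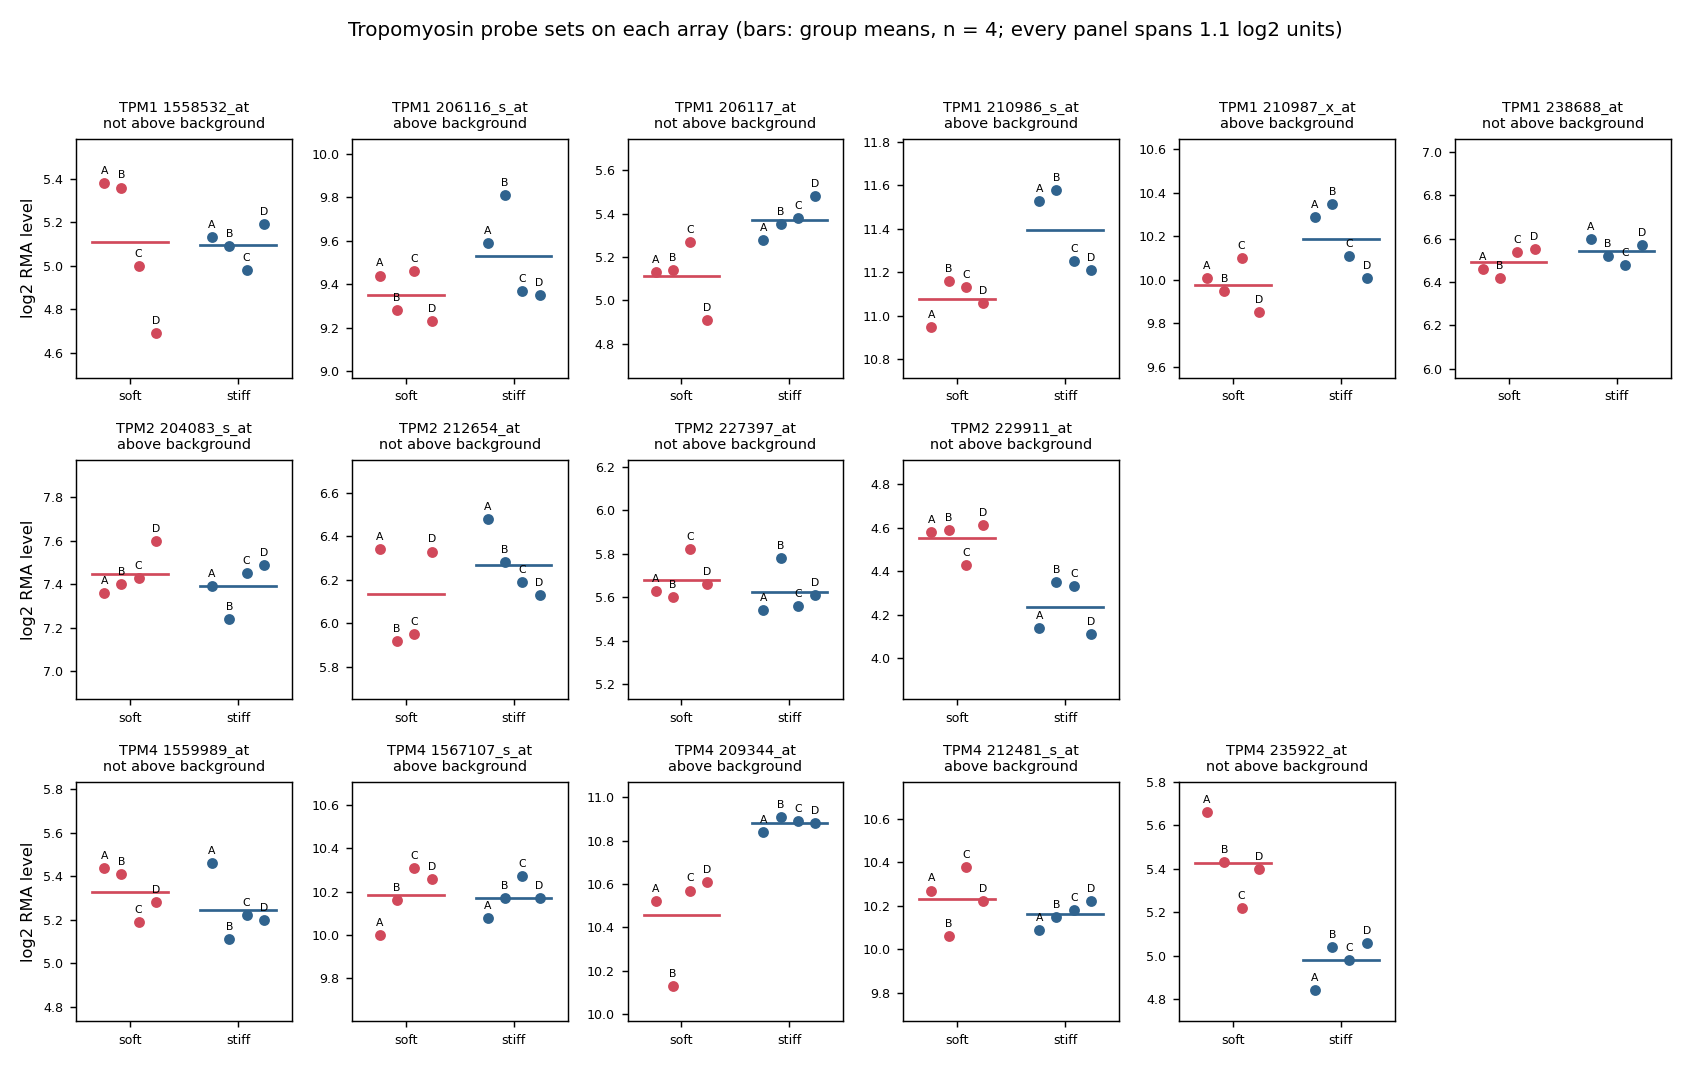
Log2 RMA level of each of the 15 tropomyosin probe sets on each array, with soft at the left and stiff at the right of each panel, letters for the replicates and bars for the means of 4 arrays. Groups do not overlap at TPM1 206117_at and 210986_s_at and TPM4 209344_at, which are lower on soft, and at TPM2 229911_at and TPM4 235922_at, which are higher on soft.

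Over the family, 2 of 15 probe sets were called higher on soft and 1 lower, where 4.64% of all 54613 probe sets were called higher and 4.63% lower (9.27% in either direction). The called pair that was higher lay under background. Of the 7 above it, 1 was called, and it was lower on soft, against 18.6% of all 21537 probe sets above background called in either direction and 9.55% called lower. Arrays did not overlap at 5 of the 15 probe sets (2 higher, 3 lower on soft), against 16.6% of all probe sets (8.06% higher, 8.5% lower). Above background this was so for 2 of 7, both lower. Of all 21537 probe sets above background, 3172 were higher without overlap and 3818 (17.7%) lower. The median absolute difference was 0.135 over the tropomyosin probe sets and 0.0925 over all. Since the family was chosen on this contrast, nothing is read from these shares.

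**Figure D3:**
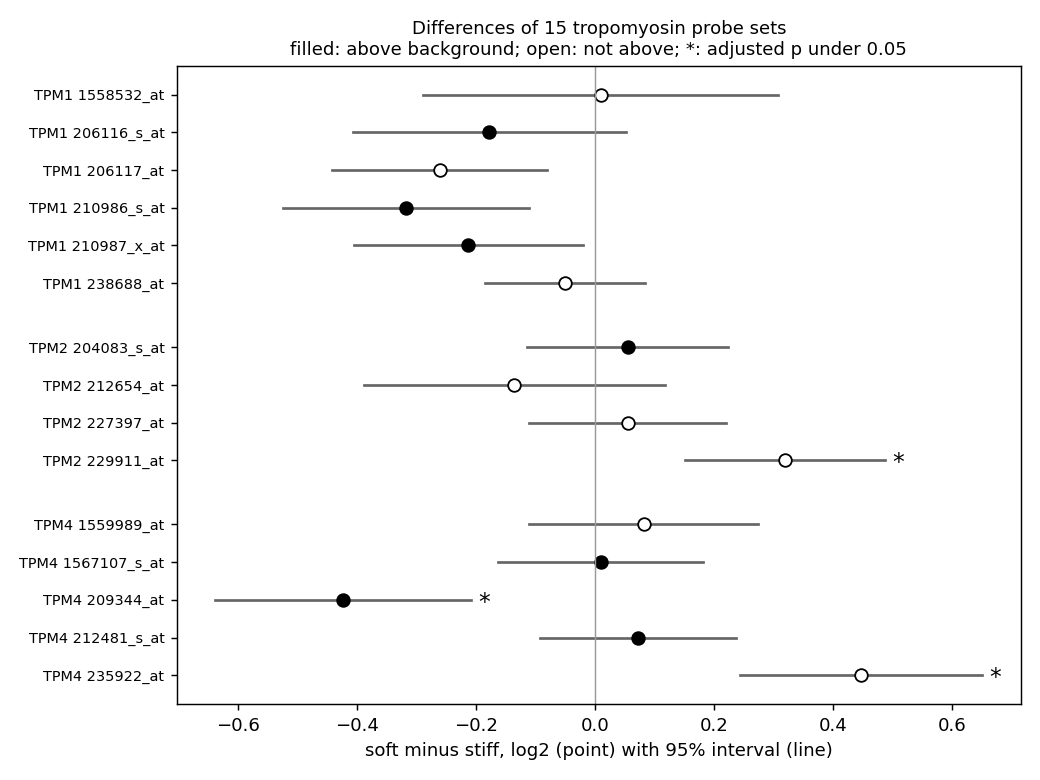
Soft minus stiff difference of each tropomyosin probe set on the log2 scale, with its 95% interval from limma. Filled points are above background, open points are not, and asterisks mark adjusted p under 0.05; TPM4 209344_at at -0.42 and 235922_at at 0.45 stand on opposite sides of 0.

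Summarised by gene, the sign for TPM4 depended on the summary. Its brightest probe set differed by -0.42, while the mean of its 5 probe sets was 8.33 on soft and 8.29 on stiff, a difference of 0.04 (95% interval -0.07 to 0.15, limma adjusted p = 0.690 over 19775 genes). This mean includes the probe sets under background, which differed by 0.45 and 0.08. For TPM1 the mean of 6 probe sets was 7.85 on soft and 8.02 on stiff (difference -0.17, 95% interval -0.31 to -0.03, limma adjusted p = 0.122). For TPM2 the mean of 4 probe sets was 5.95 on soft and 5.88 on stiff (difference 0.07, limma adjusted p = 0.433). With gene means, 11.5% of genes were called.

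The stiff replicates did not agree on TPM1. The means of stiff A and B exceeded those of stiff C and D by 0.34 at 206116_s_at, 0.325 at 210986_s_at and 0.26 at 210987_x_at. Set against stiff A and B alone, the soft arrays differed by -0.35, -0.48 and -0.34 at these probe sets, and against stiff C and D alone by -0.01, -0.16 and -0.08. TPM4 209344_at did not share this, with -0.42 when set against stiff A and B and -0.43 when set against stiff C and D. The probe sets called higher were also alike against either pair, at 0.49 and 0.41 for TPM4 235922_at and 0.31 and 0.33 for TPM2 229911_at. With a pair of stiff arrays the calls of these 3 probe sets were lost (adjusted p of 0.0583 to 0.120), and TPM1 210986_s_at was called against stiff A and B alone (adjusted p = 0.0176).

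**Figure D4:**
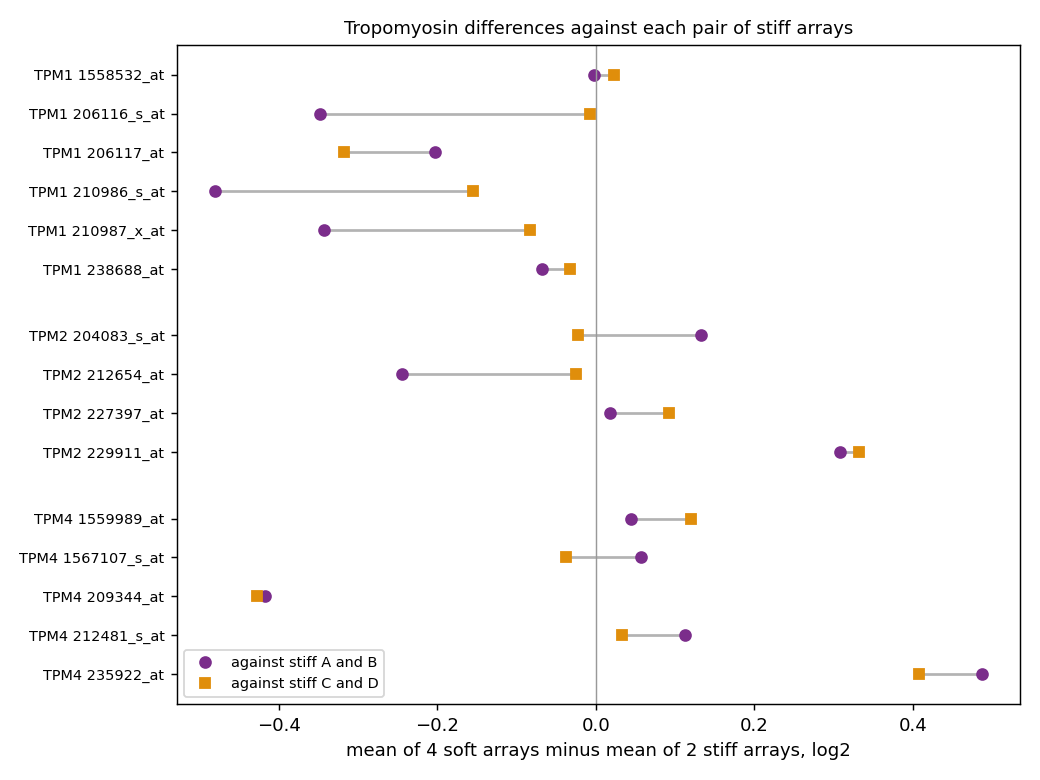
Mean of the 4 soft arrays minus the mean of stiff A and B (circles) or of stiff C and D (squares), on the log2 scale, for each tropomyosin probe set. The marks lie far apart for the bright TPM1 probe sets (-0.48 and -0.16 at 210986_s_at) and together for TPM4 209344_at (-0.42 and -0.43).

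The genes whose values followed the brightest probe set of each tropomyosin most closely over the 8 arrays were ranked by Pearson correlation among 22667 probe sets with 1 symbol and a level above the median. For TPM4 209344_at these were ATP5MJ (0.983), DDX56 (0.982) and PPFIBP1 (0.981), whose own differences were -0.14, -0.23 and -0.28, the last with limma adjusted p = 0.0294. For TPM1 210986_s_at they were SCFD2 (0.992), EDNRB (0.991) and SHISA3 (0.990), with differences of -0.18, -0.53 and -0.45, none past the threshold (limma adjusted p of 0.0563 to 0.129). For TPM2 204083_s_at they were PNPLA4 (0.956), FAHD2A (0.934) and BTD (0.933), with differences of 0.02, 0.02 and 0.10. These coefficients pool both substrates, so they include the difference between the groups.

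The partners of tropomyosin on the filament were read only at their brightest probe set. Other probe sets of the same gene may differ, as those of TPM4 did. Among 18 measured thin filament partners 1 was higher on soft, none lower and 17 not past the threshold, with a median difference of 0.04, where 4.39% of all 19775 genes were called higher, 5.93% lower and the median was 0.0075. Only 8 of these partners were above background and 10 were not. The probe set called higher was the brightest of 3 for ACTB, which encodes cytoplasmic beta-actin. It gave 14.08 to 14.16 on soft and 13.78 to 13.96 on stiff (difference 0.26, SE 0.0615, limma adjusted p = 0.0250). This probe set carries the mark for probes shared between transcripts (_x_at), so it may also read other transcripts. ACTG1, also on the list, was not measured. Whether the rise belongs to ACTB alone was not tested. The muscle actins differed by -0.11 for ACTA1, -0.05 for ACTA2, 0.09 for ACTC1 and 0.30 for ACTG2, all under background and none past the threshold. TMOD3, the tropomodulin that caps tropomyosin-coated filaments in most cells, averaged 11.20 on both substrates (difference 0.00, SE 0.0890, limma adjusted p = 0.989). TMOD2 differed by 0.10 and TMOD1, under background, by 0.04. CALD1, the caldesmon that binds actin and tropomyosin together, differed by -0.04 (SE 0.0742, limma adjusted p = 0.782).

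Proteins that share or compete for the filament, and regulators of tropomyosin genes, were counted in the same way, beside the 4.39% of all genes called higher and 5.93% called lower. Here too only the brightest probe set of each gene was read. That of DSTN, below, carries the mark for probes shared between transcripts (_s_at). Of 10 measured cofilin and Arp2/3 genes 1 was higher and none lower (median 0.129), and it was DSTN, the actin-depolymerising factor destrin, at 13.96 on soft and 13.71 on stiff (difference 0.25, SE 0.0590, limma adjusted p = 0.0229). None of 7 non-muscle myosin II genes (median 0.105), 4 actin crosslinkers (median 0.0887) or 7 troponins (median 0.0775) passed. Of these troponins only TNNT1 was above background, at 10.56 on soft and 10.32 on stiff (difference 0.24, limma adjusted p = 0.0528). Among 10 splicing regulators, chosen because tropomyosin pre-mRNAs are classic examples of regulated exons, 1 was lower and none higher (median -0.13). It was RBPMS, a promoter of the smooth muscle splicing pattern, at 6.56 on soft and 7.02 on stiff (difference -0.47, SE 0.0922, limma adjusted p = 0.0109), where the soft level was not above background. PTBP1, a splicing repressor, differed by -0.10 (SE 0.0606, limma adjusted p = 0.370). Of 9 SRF and TGF-beta regulators only TGFB2 passed. This TGF-beta ligand was at 9.52 on soft and 10.16 on stiff (difference -0.65, SE 0.0764, limma adjusted p = 0.000837), while SRF, MRTFA and MRTFB differed by 0.04, 0.02 and -0.02 (median of the list 0.0225).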

How the data were processed

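Affymetrix arrays were hybridised with total RNA of 8 cultures, each on its own array. The deposited values are log2 summaries per probe set made by the authors with RMA, per the submitters' processing notes; the log2 scale was read from the values, while the sources used here name neither the program that ran RMA nor its probe definition. RMA equalises array distributions, so a shift common to all genes is removed. Of 54675 probe sets, 62 manufacturer's controls were left out. Names came from the platform annotation, updated by gene identifier: 41091 probe sets had a single symbol, 1801 several and 11721 none. Soft and stiff were compared with limma 3.58.1 in R 4.3.3 (lmFit and eBayes, two-sided, Benjamini-Hochberg adjustment over 54613 probe sets, threshold 0.05, no fold minimum, no filter), a procedure tested on simulated data. Precision is limited by the number of arrays.

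The members and gene lists were chosen with earlier results of these data known. Named genes were all tropomyosin probe sets, the 3 best correlated genes of each brightest or called bright probe set, up to 3 called members per direction of each list, and the actins, tropomodulins, CALD1 and PTBP1. Lists were thin filament partners, troponins, non-muscle myosin II, cofilins and Arp2/3, actin crosslinkers, splicing regulators, SRF and TGF-beta regulators, and markers of MDA-MB-231, muscle, fibroblasts and leukocytes. Alternatives were a replicate block, other scalings, variance models, filters and thresholds, and leaving out arrays. The replicate letters did not pair the arrays: deviations of same-lettered arrays correlated at -0.118 to 0.122.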

Additional observations from a re-analysis of the deposited data

Results flagged for a closer look

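At TPM2 229911_at, soft C (4.43) lay apart from the other soft arrays, the nearest of which was 4.58, with a gap of 0.833 of the group's range. It was the 1 such array among 30 groups of 4 examined, where chance gives about 1 in 20. This probe set lies under background, and its difference was 0.36 without soft C.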

How the results depend on the processing

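Each difference was recomputed in up to 20 other settings. The 3 tropomyosin calls were all lost at a threshold of 0.01 (0 calls, and 1663 over all probe sets), without stiff A and B together (0 and 2188) and without stiff C and D together (2659 over all), where the 1 tropomyosin call was another probe set, TPM1 210986_s_at. Leaving out 1 array at a time gave 2 to 4 tropomyosin calls and 2851 to 5080 calls over all, and dropping probe sets marked as shared gave 2900 over all. With the replicate block there were 2 tropomyosin calls and 3937 over all; TPM2 229911_at was not called (adjusted p = 0.0577), and 2 of 8 arrays correlated best with their own letter. The TPM4 difference was 0.038 with the mean of all its probe sets, opposite in sign to its brightest probe set but not called (adjusted p = 0.690). TPM4 209344_at kept its call in 14 of 20 settings, at -0.47 to -0.31, and TPM4 235922_at in 15 of 18, at 0.37 to 0.52. The cause of these changes was not tested. Signal near background limits 8 of the 15 probe sets.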
